A study of Macaca fascicularis with 2 samples.

Results

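Expression of 9 genes of glucose uptake and glycolysis (*SLC2A1*, *SLC2A3*, *HK1*, *HK2*, *PFKFB3*, *PGK1*, *ENO1*, *LDHA* and *PDK1*) was examined in single cells of the nucleus pulposus (NP) and the articular cartilage (AC) of cynomolgus monkeys. The genes were taken by symbol, and all 9 were among the 21371 genes counted. The tissues came from wild type male monkeys at 3 years of age, and 3 tissue samples are labelled as pooled (the AC and NP of one monkey and the AC of the other). The cells were digested out of their matrix with enzymes, tagged on their surface, pooled and sequenced as 1 library. The RNA of each cell was captured on a barcoded bead, and the cDNA made from it was amplified by TAS-seq. Subchondral bone was not part of the samples.

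Glycolysis splits glucose into pyruvate and yields ATP without oxygen, and lactate dehydrogenase then turns pyruvate into lactate. The NP and AC have no blood vessels, so their cells live at low oxygen and are known for making much of their ATP in this way. During preparation, however, the cells were kept in normoxia. The authors name this as a limit that may have altered transcription, and state that AC took longer to digest than NP. The part of this handling in the results was not tested. Many genes of the pathway are known targets of hypoxia-inducible factor 1 (HIF-1), which also raises *PDK1*, the kinase that switches off pyruvate dehydrogenase.

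Cells carried 1 of 4 tags, A951 to A954. The tissue behind a tag is not named in the sources used, so the tags are given as separate pools and not as AC or NP, and they are not replicates. Of the 5674 tagged cells, 5653 passed the limits on quality. Notochordal cells (NCs), the large NP cells that remain from the embryonic notochord, were defined by 5 or more reads of both *KRT19* and *TBXT*. There were 310 of them, with 67 under tag A951, 236 under A952, 5 under A953 and 2 under A954. A second group of 151 cells had 100 or more *IL17B* reads per 1000000 reads (rpm), with 37, 42, 51 and 21 cells under the tags in the same order, and no cell met both definitions. The remaining 5192 cells are called other cells. The NCs nearest the limit had 5 reads of the rarer of *KRT19* and *TBXT*, and the nearest cell outside had 4. The lowest *IL17B* level inside the second group was 104 rpm, and the highest outside was 84.0 rpm.

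The NC label was compared with 15 notochordal markers, 12 of which were counted. The authors name *C3orf49*, *APOE*, *NRN1* and *SRGN* as markers of an NC cluster found in data that include this library. These genes are therefore not an independent check of the label. Beyond *KRT19* and *TBXT*, which defined the cells, *CDH2*, *NCAM1*, *SHH*, *CA12*, *NRN1*, *SRGN*, *C3orf49* and *APOE* were all at least 2-fold higher in NCs than in the matched other cells described below, where 24.7% of all genes were, with *APOE* at 10894 rpm as the most abundant. *SHH* passed the filter on low values through the NCs alone (35.5% against 7.93% of cells with a read), and 2 of the 12 did not pass it.

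The 10 chondrocyte markers counted summed to 19784 rpm in NCs, 76325 rpm in IL17B-high cells and 54653 rpm in other cells. In NCs *ACAN* (aggrecan) made up 14440 rpm of this. The pool of 5 NCs under A953 differed, with 38344 rpm for the chondrocyte markers and *PRG4* the most abundant at 16346 rpm. Its notochordal markers summed to 10425 rpm, against 17195 rpm in all NCs. These 5 cells had a median of 6612 genes detected, against 4061 in all NCs. Whether they were doublets was not tested. *ACAN* and *SOX9* were higher in NCs than in matched cells (log2 ratios of 1.60 and 1.64), and the other 8 were lower, among them the collagens *COL9A1* (-4.55) and *COL2A1* (-4.18). Of all genes, 24.7% were at least 2-fold higher in NCs and 11.8% lower. In IL17B-high cells *CNMD* (3.59), *COL9A1* (1.48) and *CHAD* (1.29) were higher, whereas *PRG4*, the lubricin of the cartilage surface, was lower (-5.03, 464 against 15209 rpm). There 6.88% of all genes were at least 2-fold higher and 18.2% lower. Of the fibroblast markers 4 of 5 tested were lower in NCs and 5 of 6 in IL17B-high cells, where 11.8% and 18.2% of all genes were. The 6 genes summed to 1042 rpm in NCs and 737 rpm in IL17B-high cells, against 3937 rpm in other cells with *COL3A1* the most abundant, and none was at 0. *COL1A1* had log2 ratios to matched cells of -6.16 in NCs and -5.88 in IL17B-high cells, *PDGFRA* -5.70 and -3.33, and *COL3A1* -3.76 and -2.64. The matched other cells thus carried more of these transcripts, and their part in the results was not tested.

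Bone markers summed to 921 rpm in IL17B-high cells, with *IBSP* at 519 rpm as the most abundant and *SP7* detected in too few cells to be compared, against 9.54 rpm in their matched other cells. The 21 cells under A954 carried much of this. By tag from A951 the sums were 416, 809, 500.5 and 2672 rpm, and without A954 the sum was 560.1 rpm and *IBSP* 165 rpm, with *BGLAP* (osteocalcin) then the most abundant at 323 rpm. Immune, endothelial and erythroid markers were scarce, at a summed 28.1, 3.74 and 0.0454 rpm in NCs and 15.4, 3.18 and 0 rpm in IL17B-high cells. Of the 7 erythroid markers listed, only 2 were counted. The 5 mural and muscle markers summed to 80.3 rpm in NCs, 19.8 rpm in IL17B-high cells and 14.8 rpm in other cells. In NCs this came from *ACTA2*, the actin of smooth muscle, under tag A952. *ACTA2* had 1.97, 90.1, 0.882 and 95.1 rpm in NCs by tag, against 4.82 to 7.22 rpm in other cells, and 5 NCs held 50% of its reads. Without A952 the mural markers summed to 7.13 rpm in NCs, below the other cells. In IL17B-high cells the sum was 10.99 rpm without A951. *MYH11*, the smooth muscle myosin, had 0.954 rpm in NCs and 1.22 rpm in matched cells. The part of the mural transcripts in the results for NCs, and of the bone marker transcripts in those for IL17B-high cells, was not tested.

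The groups differed in depth. A median of 4061 genes and 186370 reads was counted per NC, 5316 genes and 382234 reads per IL17B-high cell, and 3791 genes and 196086 reads per other cell. Each cell was therefore matched, within its tag, to up to 3 other cells with nearly the same number of genes detected. This gave 845 other cells for the 310 NCs and 442 for the 151 IL17B-high cells, with medians of 3829 and 5225 genes detected. Levels are the reads of a gene in all cells of a pool divided by all reads of that pool, in rpm. Their exact Poisson intervals, and the binomial intervals of shares of reads, treat every read as independent. Reads were counted without molecular identifiers, so PCR copies are included and these intervals are too narrow even for counting error. The binomial intervals of shares of cells cover counting error only. None of the intervals covers variation between samples. With 1 library there is no replicate and no test, and a gene is called higher or lower when the levels differed at least 2-fold. Levels are not corrected for gene length, so they are mainly compared between groups of cells. Where a gene is called the most abundant, or is given a share of reads, this refers to reads without that correction. A low count of reads says little about a single cell. *KRT19*, which marks NCs, had a read in 10.3% of the other cells, with a median of 1 read in those cells, and whether these were stray reads, low expression or doublets was not tested. Shares of cells with a read are for this reason also given from 5 reads upward for *PFKFB3*, *SLC2A3* and *PDK1*.

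*PFKFB3*, *SLC2A3* and *PDK1* were at least 2-fold higher in NCs than in matched other cells, and *HK1* was at least 2-fold lower. Thus 3 of the 9 genes were called higher, where 24.7% of 9943 tested genes were, and 1 was called lower, where 11.8% were. Over all genes the median log2 ratio was 0.30, and over the 9 genes it was 0.69. Relative to the median of all genes, the log2 ratio was 2.49 for *PFKFB3*, 1.09 for *SLC2A3*, 1.04 for *PDK1*, 0.57 for *ENO1*, 0.39 for *LDHA*, 0.12 for *PGK1*, 0.06 for *SLC2A1*, -0.96 for *HK2* and -1.38 for *HK1*. All calls stayed the same on this scale. Other settings ended some of them. *HK1* was no longer called without matching (-0.95), with NCs defined by 1 or more *KRT19* and *TBXT* reads (-0.84) or without tag A952 (-0.57). *PDK1* lost its call with matching on reads (0.70), with means of log2(rpm + 1) (0.14), with NCs defined by 1 or more reads (0.24) and without tag A951 (0.96). *PDK1* passed the filter on low values, a read in 10% of the cells of one side, through the NCs alone, where 10.3% of the cells had a read.

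In the IL17B-high cells, *PFKFB3* was the 1 gene called higher among the 9, and none was called lower. Of 10844 tested genes, 6.88% were called higher and 18.2% lower. The median log2 ratio was -0.28 over all genes and 0.50 over the 9 genes. When the ratios were taken relative to that median, *SLC2A3* (1.26), *SLC2A1* (1.17) and *LDHA* (1.14) also passed 2-fold beside *PFKFB3* (2.27), the count became 4, and *ENO1* moved from -0.25 to 0.03. *PGK1* stayed lower, at -0.62 relative to all genes.

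**Figure D1:**
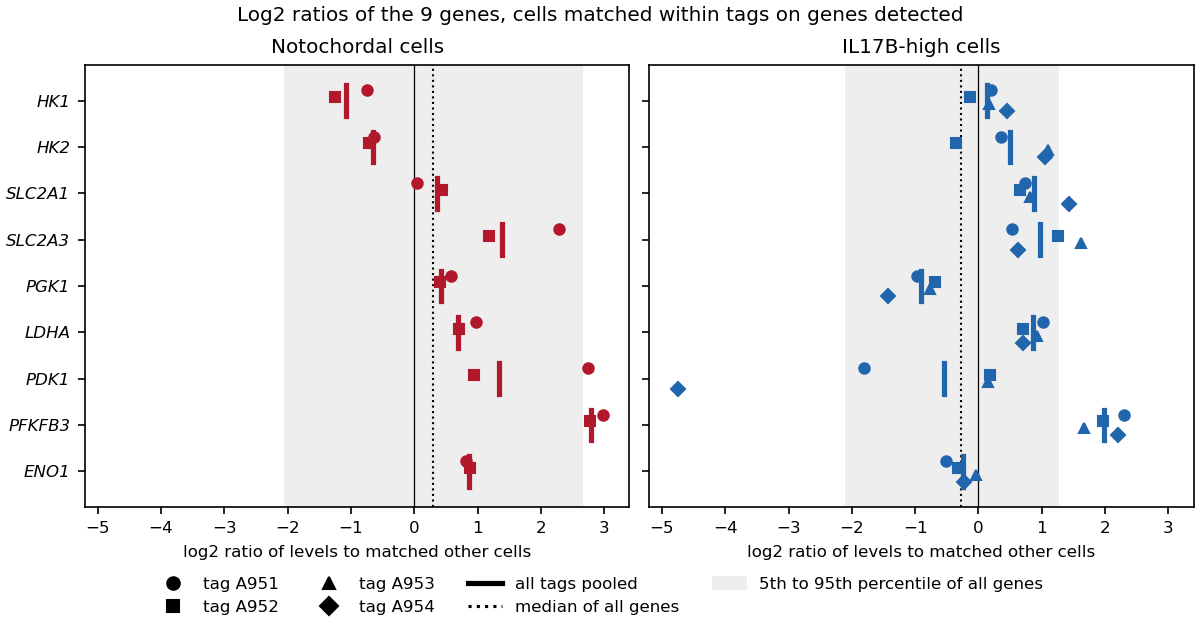
Log2 ratio of the pooled level to matched other cells for the 9 genes, in NCs (left) and IL17B-high cells (right). Vertical bars pool all tags, points are tags with 20 or more cells, the dotted line is the median of all tested genes and the grey band runs from their 5th to their 95th percentile. *PFKFB3* lies beyond the band in both panels, and *HK1* is below 0 in NCs under both tags.

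*PFKFB3* makes fructose 2,6-bisphosphate, the strongest known activator of phosphofructokinase and thus of the rate of glycolysis. Its level was 233 rpm (95% exact Poisson interval, 229 to 237) in all NCs, 146 rpm (143 to 149) in all IL17B-high cells and 32.1 rpm (31.8 to 32.4) in all other cells. By tag, from A951 to A954, it was 263, 235, 16.3 and 194 rpm in NCs. The corresponding levels in IL17B-high cells were 145, 164, 111 and 198 rpm. In the other cells they were 31.8, 33.2, 26.3 and 35.0 rpm. Thus all 4 pools of IL17B-high cells and the 2 large pools of NCs lay above every pool of other cells. The 1 exception was the pool of 5 NCs under A953, whose markers differed as described above.

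Against the matched other cells, the log2 ratio of *PFKFB3* was 2.79 in NCs (233 against 33.7 rpm, 6.90-fold). It was 2.98 under tag A951 and 2.78 under A952. Under A953, the 5 NCs had 16.3 rpm and their 15 matched cells 28.1 rpm, a log2 ratio of -0.79. In IL17B-high cells the ratio was 1.99 (146 against 36.9 rpm, 3.96-fold), and it ranged from 1.67 to 2.30 over the 4 tags. Among all tested genes these ratios ranked at the 95.5th percentile in NCs and the 97.9th in IL17B-high cells.

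Cells with many *PFKFB3* reads were more frequent in both groups. From 5 reads upward it was detected in 55.2% of NCs, 55.6% of IL17B-high cells and 12.9% of other cells. The median cell had 41.8 rpm among NCs, 28.4 rpm among IL17B-high cells and 0 rpm among other cells. When every cell was thinned to 50000 reads, which left out 11, 2 and 194 cells of the 3 groups as too shallow, a read remained in 59.5% of NCs (95% exact binomial interval, 53.7 to 65.1), 56.4% of IL17B-high cells and 24.3% of other cells. Within each group the reads were concentrated. Of the *PFKFB3* reads, 50% were held by 29 of 310 NCs, by 14 of 151 IL17B-high cells and by 126 of 5192 other cells, or 9.35%, 9.27% and 2.43% of the cells.

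**Figure D2:**
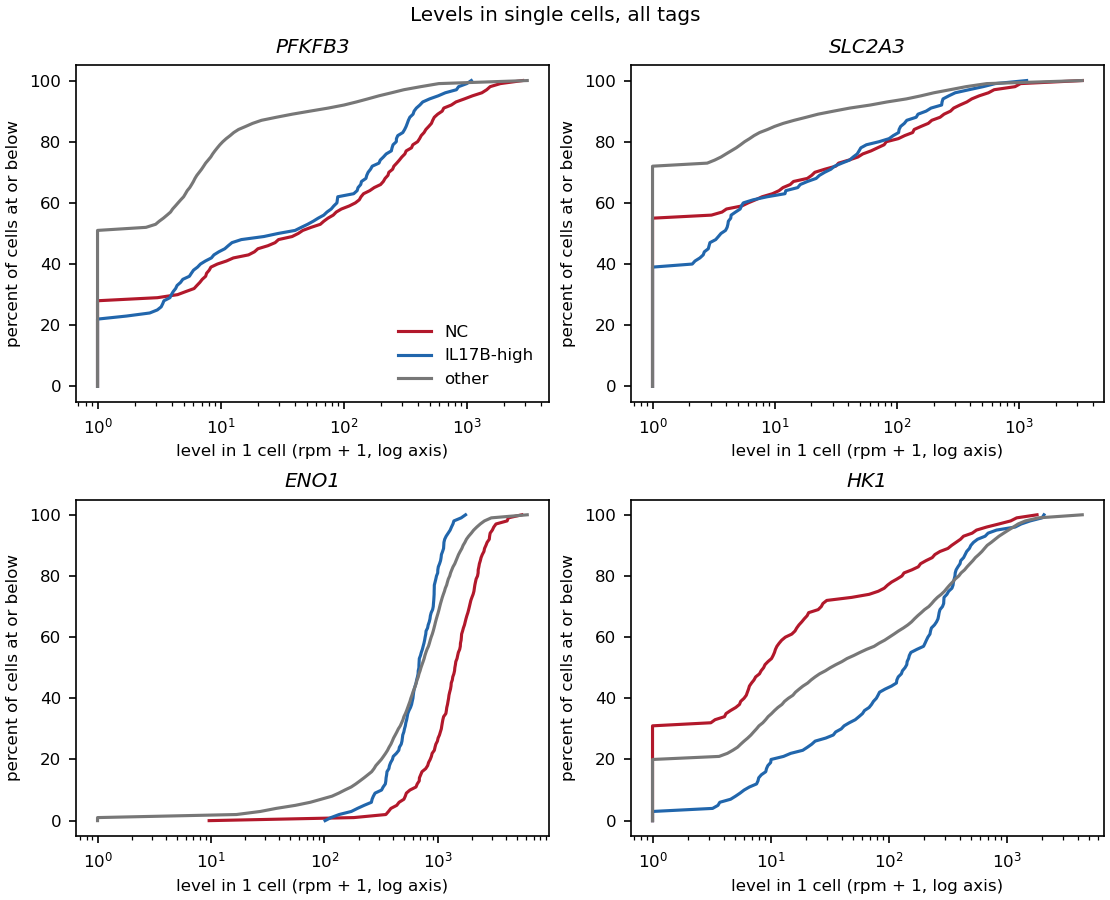
Cumulative share of cells (percent) by level in 1 cell (rpm + 1, log axis) for *PFKFB3*, *SLC2A3*, *ENO1* and *HK1* in NCs, IL17B-high cells and other cells of all tags. For *PFKFB3* the curves of NCs and IL17B-high cells run far to the right of that of other cells, whose median is 0 rpm, and for *ENO1* the curve of NCs is shifted as a whole.

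Genes that tissue digestion is known to induce were also higher in NCs. Of the 11 such genes listed, 6 were counted, and 4 of them were at least 2-fold higher in NCs, against 24.7% of all genes (*JUN*, *DNAJB1*, *FOS* and *FOSB*, with log2 ratios of 2.34, 2.27, 2.01 and 1.38). Summed, the 6 genes reached 7703 rpm in NCs and 2313 rpm in the matched cells, with *JUN* the most abundant. By tag from A951 the NCs had 9975, 7435, 2419 and 34.2 rpm, against 1935 to 2524 rpm in other cells, so the sum was far above the other cells under the 2 large tags and not in the pools of 5 and 2 cells. When 301 NCs were instead paired with 301 other cells of the same tag and nearly the same summed level of these genes, the sums were 6910 and 5251 rpm and the median numbers of genes detected 4077 and 3682. The log2 ratio of *PFKFB3* was 2.08, and that of *SLC2A3* fell to 0.73 and lost its call. In the IL17B-high cells the 6 genes summed to 1977 against 1656 rpm, and A954 had 5518 rpm where the other tags had 967 to 1573 rpm. Without A954 the sums were 1248 against 1588 rpm, and with 1 matched cell 1977 against 2213 rpm. After the same pairing, *PFKFB3* had a log2 ratio of 2.36, but depth was then no longer matched, with medians of 5316 against 3731 genes.

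Facilitated entry of glucose is the work of *SLC2A1* (GLUT1), the basal transporter of most cells, and *SLC2A3* (GLUT3), a transporter of high affinity. *SLC2A3* had 109, 68.8, 76.7 and 0 rpm in NCs under tags A951 to A954. No read was found in the 2 NCs under A954, which allows up to 14.0 rpm by the exact Poisson interval. Its levels were 46.4, 49.9, 44.9 and 88.7 rpm in IL17B-high cells and 25.3, 28.9, 14.9 and 31.2 rpm in other cells. The large pools of NCs and all pools of IL17B-high cells were therefore higher than any pool of other cells.

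The log2 ratio of *SLC2A3* to matched other cells was 1.39 in NCs (76.2 against 29.0 rpm), with 2.29 under A951 and 1.18 under A952. It was 0.98 in IL17B-high cells (53.9 against 27.4 rpm), just short of 2-fold, and positive under all 4 tags (0.53 to 1.61). *SLC2A3* was not read in most NCs. A read was found in 44.5% of them, and in 27.7% of their matched cells. Of the deeper IL17B-high cells 60.3% had a read, and of their matched cells 42.1%. From 5 reads upward it was detected in 30.6% of NCs, 36.4% of IL17B-high cells and 11.3% of all other cells. *SLC2A14*, a close relative of *SLC2A3* in primates with which reads could be shared, was counted separately and reached 0.530 rpm in NCs.

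*SLC2A1* had 448, 530.3, 392 and 129 rpm in NCs, by tag in the same order, and 678, 554, 414 and 684 rpm in IL17B-high cells. In other cells it had 414, 379, 240.5 and 321 rpm. The log2 ratio to matched cells was 0.36 in NCs, close to the median of all genes, with 0.05 under A951 and 0.44 under A952. The ratio was 0.88 in IL17B-high cells, with 0.66 to 1.43 over the tags. Of the reads on the 2 transporters, *SLC2A1* held 87.0% in NCs (95% exact binomial interval, 86.6 to 87.3), 91.2% in IL17B-high cells (90.9 to 91.5) and 92.6% in other cells (92.5 to 92.7). Tags differed by more than these intervals. The lower share in NCs was seen under both large tags, at 80.4% for A951 and 88.5% for A952, against 94.2% and 92.9% in the other cells of those tags.

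Hexokinases phosphorylate glucose and so keep it in the cell. *HK1*, the form present in most tissues, had 137, 108, 171 and 3.80 rpm in NCs by tag, the last from 1 read in 2 cells. It had 203, 211, 261 and 207 rpm in IL17B-high cells and 227, 269, 244 and 196 rpm in other cells. NCs were thus lower than other cells under each tag. Relative to matched cells the log2 ratio of *HK1* was -1.08 in NCs (115 against 244 rpm, 2.12-fold lower), with -0.74 under A951 and -1.25 under A952, but 0.87 for the 5 NCs under A953, whose 15 matched cells had 93.2 rpm. That of IL17B-high cells was 0.13, within -0.14 to 0.44 over the tags.

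*HK2*, the inducible hexokinase, did not reach 2-fold in either group. It had 61.0, 67.8, 61.3 and 3.80 rpm in NCs, 107, 92.1, 128 and 64.2 rpm in IL17B-high cells and 109, 109, 68.5 and 90.1 rpm in other cells. The log2 ratio to matched cells was -0.66 in NCs, with -0.63 under A951 and -0.72 under A952. For IL17B-high cells it was 0.50 and went both ways over the tags, from -0.35 to 1.09. *HK1* held 63.6% of the reads on both hexokinases in NCs, 68.6% in IL17B-high cells and 71.2% in other cells, but among other cells this share alone varied from 67.6% under A951 to 78.1% under A953.

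**Figure D3:**
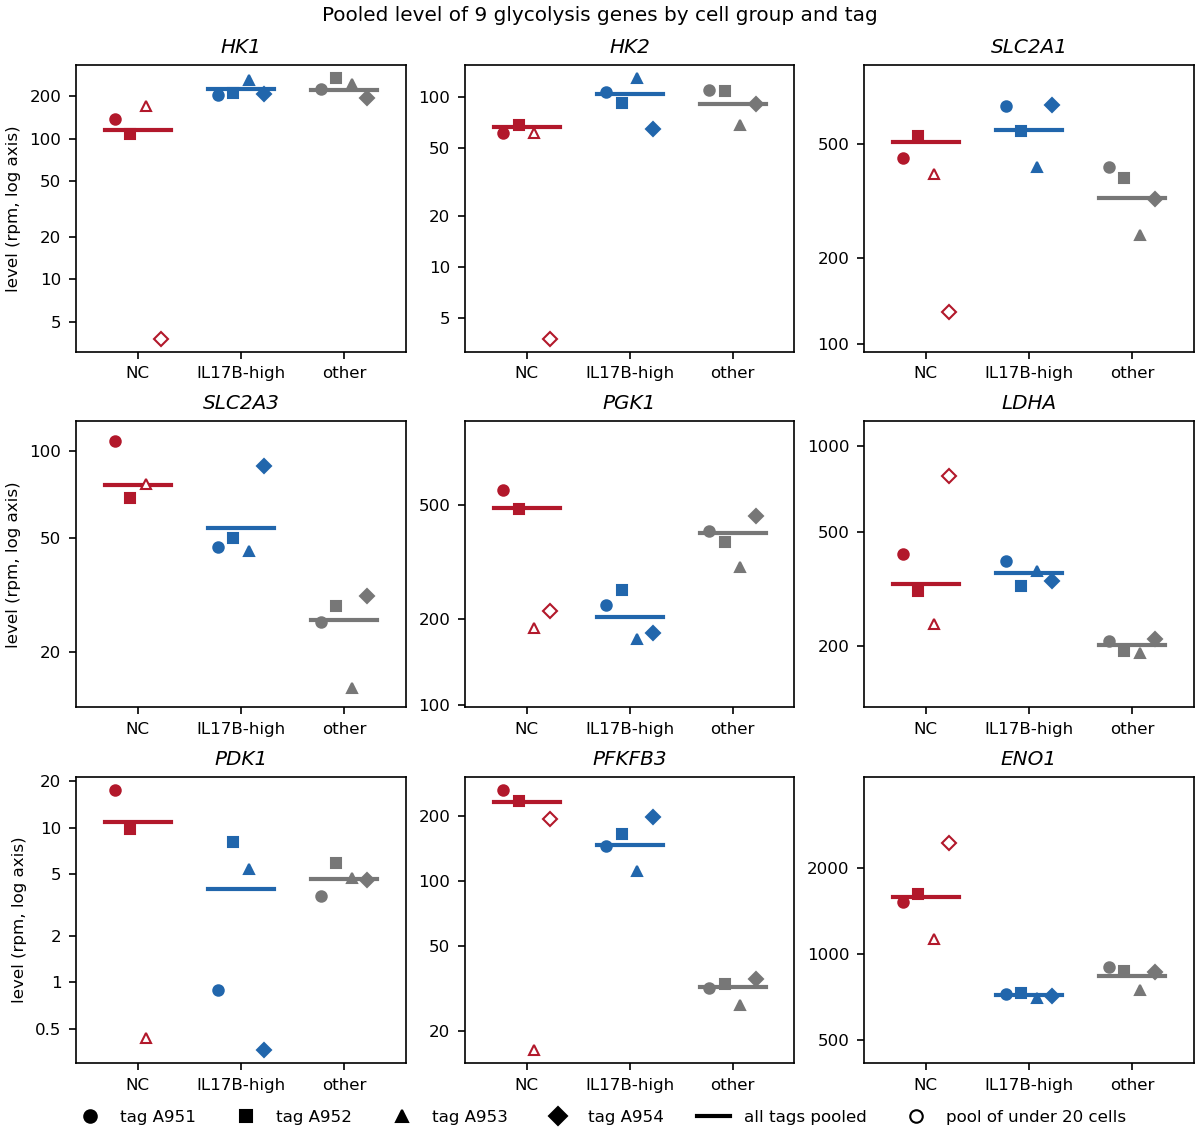
Pooled level (rpm, log axis) of each of the 9 genes in NCs, IL17B-high cells and other cells. Points are tags, open points are pools of fewer than 20 cells, horizontal lines pool all tags, and pools without a read (*SLC2A3* and *PDK1* in the 2 NCs under A954) are not drawn. Filled points of NCs and IL17B-high cells lie above all those of other cells for *PFKFB3*, *SLC2A3* and *LDHA*. For *PGK1* the filled points of NCs lie above those of other cells, and the points of IL17B-high cells and the open points of NCs lie below them. Neither group reached 2-fold for *PGK1* against matched cells.

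*PGK1* and *ENO1* encode enzymes of the second stage of glycolysis. Phosphoglycerate kinase makes ATP, and enolase makes phosphoenolpyruvate. *ENO1* was read in all NCs and in all IL17B-high cells. It had 1522, 1616, 1127 and 2453 rpm in NCs by tag, and every pool of other cells was below these, at 898, 876, 748 and 863 rpm. The log2 ratio to matched cells was 0.87 in NCs (1585 against 869 rpm) and nearly equal under A951 (0.82) and A952 (0.88). IL17B-high cells had 727, 733, 704 and 712 rpm and a ratio of -0.25, which was below 0 under all 4 tags (-0.51 to -0.03).

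*PGK1* did not reach 2-fold in either group, and its log2 ratios to matched cells had opposite signs in them. NCs had 563, 482, 185 and 213 rpm by tag, IL17B-high cells 223, 251, 170.0 and 177 rpm, and other cells 403, 369.9, 304 and 455 rpm. The large pools of NCs were higher than all pools of other cells, whereas the 5 and 2 NCs under A953 and A954 were lower. The log2 ratio to matched cells was 0.42 in NCs, with 0.58 under A951 and 0.41 under A952. Relative to the median of all genes it was 0.12 in NCs. In IL17B-high cells it was -0.91 (203 against 380.5 rpm), and it was negative under all 4 tags (-1.44 to -0.68). *PGK1* was read in 94.7% of IL17B-high cells and 95.5% of their matched cells, so the groups differed in level but hardly in the share of cells. *PGK2*, its copy used in the testis, had no read in NCs or IL17B-high cells.

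*LDHA* encodes the subunit of lactate dehydrogenase that favours lactate, and its level was higher in both groups by less than 2-fold. By tag it had 418, 310.2, 239 and 787 rpm in NCs, 395, 325, 364 and 337 rpm in IL17B-high cells and 208, 192, 189 and 211 rpm in other cells. No pool of NCs or IL17B-high cells overlapped the range of all other cells by tag. The log2 ratio to matched cells was 0.69 in NCs (329.6 against 204 rpm), with 0.98 under A951 and 0.70 under A952, but -0.60 for the 5 NCs under A953, whose 15 matched cells had 363 rpm. In IL17B-high cells it was 0.86 (358 against 198 rpm), with 0.70 to 1.02 over the tags. Of the reads on *LDHA* and *LDHB*, the subunit of oxidative tissues, *LDHA* held 88.0% in NCs, 91.9% in IL17B-high cells and 87.7% in other cells.

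*PDK1* encodes the kinase that switches off pyruvate dehydrogenase. It was read in 32 of 310 NCs, 19 of 151 IL17B-high cells and 376 of 5192 other cells, shares close to the 10.3% of other cells with a read of *KRT19*. From 5 reads upward it was detected in 3.87%, 4.64% and 2.29% of these groups. Its level was 17.5, 9.86, 0.441 and 0 rpm in NCs by tag. In IL17B-high cells it was 0.890, 8.07, 5.37 and 0.365 rpm, a spread that covers the other cells at 3.64, 5.93, 4.72 and 4.60 rpm. The log2 ratio of 1.34 in NCs rested on few cells, since 1 cell held 42.9% of the reads, and the ratio was 2.75 under A951 and 0.94 under A952. The ratio in IL17B-high cells was -0.55.

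Only pools of 20 or more cells were taken here. Both pools of NCs were above all 4 pools of other cells for 7 genes. They were below them for *HK1* and, by less than 1 rpm, *HK2*. Of 9948 genes, 39.2% were above and 21.9% below in this way. In IL17B-high cells 4 genes were above (*PFKFB3*, *SLC2A3*, *LDHA* and, by less than 1 rpm, *SLC2A1*), where 5.23% of 10547 genes were. *PGK1* and *ENO1* were below, where 24.1% of genes were, and *HK1*, *HK2* and *PDK1* overlapped.

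NCs and IL17B-high cells were also compared directly, with 78 IL17B-high cells and 180 NCs matched on genes detected. The other 73 IL17B-high cells had no NC of similar depth left in their tag. Depth was not made equal by this matching. Under A951 the IL17B-high cells had a median of 4936 genes and 312200 reads and the NCs 3854 genes and 180932 reads, and under A952 the medians were 5120 against 4882 genes. *ENO1* and *PGK1* were at least 2-fold lower in IL17B-high cells, with log2 ratios of -1.21 (702 against 1629 rpm) and -1.02 (230.4 against 466 rpm), and none of the 9 was higher. Over 10852 genes 37.5% were lower and 11.8% higher, with a median log2 ratio of -0.60. *HK2* (0.80), *HK1* (0.61) and *SLC2A1* (0.41) were on the side of the IL17B-high cells. *PFKFB3* (-0.30), *SLC2A3* (-0.44) and *PDK1* (-0.35) were on the side of the NCs, and *LDHA* stood at 0.07. *PDK1* had no common direction, since its ratio was -5.96 under A951 and 2.52 under A952. The ratio of *SLC2A1* was 1.01 under A951 and 0.16 under A952, and it was 0.006 without A951. The calls of this comparison turned on the scale. Relative to the median of all genes *ENO1* (-0.62) and *PGK1* (-0.42) were not called, *HK2* (1.39), *HK1* (1.21) and *SLC2A1* (1.01) were at least 2-fold higher in IL17B-high cells, and *PFKFB3* (0.30), *SLC2A3* (0.16) and *PDK1* (0.25) lay above 0. *PGK1* also fell short of 2-fold with means of per-cell rpm (-0.95) and without A951 (-0.97) or A953 (-0.98).

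Levels were also compared between the tags among the other cells alone. With cells in 5 bins of genes detected weighted alike, *SLC2A3* was the 1 gene with a range of at least 2-fold over the 4 tags, from 15.3 rpm under A953 to 30.9 rpm under A954. A range of that size was found for 12.1% of 9626 genes, which is near the share among the genes compared here. Over all those genes the median range was 0.45 on the log2 scale. Tag A953 had the lowest level of 7 of the 9 genes (*HK2*, *SLC2A1*, *SLC2A3*, *PGK1*, *LDHA*, *PFKFB3* and *ENO1*). The highest level was 1.71 times the lowest for *SLC2A1*, 1.42 times for *PFKFB3*, 1.17 times for *ENO1* and 1.15 times for *LDHA*, and *PDK1* did not pass the filter. From the bin with the fewest genes detected to that with the most, levels changed by a factor between 0.818 for *PFKFB3* and 1.46 for *SLC2A3*.

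The remaining genes of the pathway were described from lists of related genes. Of 19 other genes of glycolysis, 12 were counted (*ALDOA*, *TPI1*, *GAPDH*, *PGAM1*, *ENO3*, *PKM* and *BPGM* were not among the genes counted) and 8 were tested in NCs. Of these, *GPI*, *PFKM* and *LDHC* were at least 2-fold higher in NCs, with log2 ratios of 1.07, 1.45 and 2.07, and none was lower. Of all tested genes 24.7% were higher and 11.8% lower, and the median was 0.71 for the list against 0.30 for all genes. *LDHC* passed the filter through the NCs alone, with a read in 14.2% of them and in 9.23% of matched cells. *GPI*, the enzyme between hexokinase and phosphofructokinase, had 555 against 264 rpm, whereas *LDHC*, known from the testis, had 11.6 against 2.76 rpm. In IL17B-high cells the list had a median of -0.66 over 8 genes against -0.28, with none higher and 1 lower, where 6.88% and 18.2% of all genes were. The lower gene was *ENO2*, the neuronal enolase (log2 ratio -4.80, 0.888 against 24.6 rpm). *LDHB* was the only one of the 8 genes with a ratio above 0, at 0.23.

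Of 12 further carriers of sugars and lactate, 10 were counted and 7 tested. In NCs none was higher and 3 were lower, namely *SLC2A12* (log2 ratio -3.04), the lactate carrier *SLC16A1* (-1.65, 54.3 against 169.9 rpm) and the fructose carrier *SLC2A5* (-1.06), where 24.7% of all genes were higher and 11.8% lower. The median was -0.79 against 0.30 for all genes. In IL17B-high cells *SLC2A10* was higher (1.79), *SLC2A12* (-3.21), *SLC16A7* (-2.92) and *SLC2A8* (-1.37) were lower, and *SLC16A1* had a ratio of 0.48. Among all genes 6.88% were higher and 18.2% lower there, and the median was -0.46 for the carriers and -0.28 for all genes. *SLC2A12* was thus lower in both groups, at 2.33 against 19.2 rpm in NCs and 2.18 against 20.2 rpm in IL17B-high cells.

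Genes that set the fate of pyruvate and the level of fructose 2,6-bisphosphate were tested next, 12 of 16. In NCs 5 were higher and none lower: *PDP1*, the phosphatase that switches pyruvate dehydrogenase on (log2 ratio 2.87, 11.2 against 1.52 rpm), *PDK2* (1.67), *MPC1*, a subunit of the mitochondrial pyruvate carrier (1.47, 103 against 37.3 rpm), the dehydrogenase subunit *PDHB* (1.42) and *PFKFB2* (1.15). Over all genes 24.7% were higher and 11.8% lower, and the median was 0.58 for these 12 and 0.30 for all. Both *PDP1* and *PDK2* passed the filter through the NCs alone, since 4.38% and 9.23% of matched cells had a read, so their calls follow in part from the filter. In IL17B-high cells *PFKFB2* was higher (1.40), and *PFKFB4* (-1.94), *PDK2* (-1.61), *PDHB* (-1.58), *PDK4* (-1.05) and *PDHX* (-1.03) were lower, against 6.88% of all genes higher and 18.2% lower. The median was -0.51 for the 12 genes there and -0.28 for all. Within the family of *PFKFB3*, the groups differed in the make-up of the reads. *PFKFB3* held 96.8% of the reads on *PFKFB3* and *PFKFB4* in NCs, 97.8% in IL17B-high cells and 69.6% in other cells. Against *PFKFB2* the shares were 95.3%, 91.7% and 85.3%. By tag, IL17B-high cells overlapped the other cells here, with 84.9% under A953 against 77.2% (A951) to 89.5% (A952) in other cells. NCs lay above these, at 98.7% under A951 and 94.4% under A952.

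**Figure D4:**
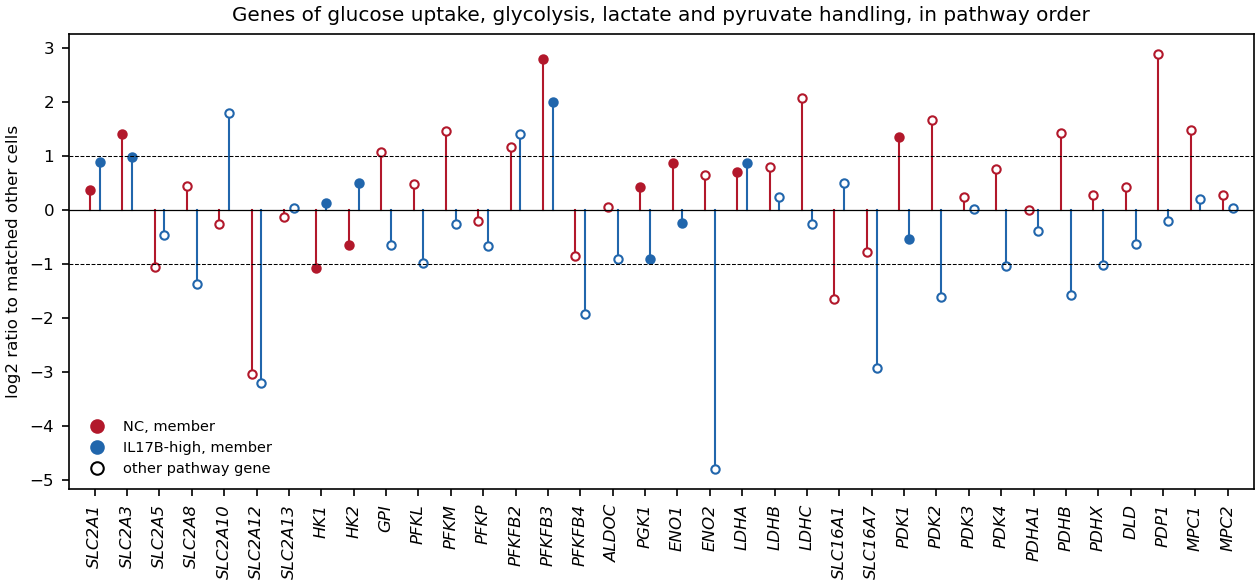
Log2 ratio of the pooled level to matched other cells for the 9 genes (filled points) and the other tested genes of sugar and lactate transport, glycolysis and pyruvate handling (open points), in pathway order. Dashed lines mark 2-fold. *PFKFB3* stands at 2.79 and 1.99, *PGK1* at 0.42 and -0.91, and *ENO1* at 0.87 and -0.25 in NCs and IL17B-high cells.

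Many genes of glycolysis are known targets of HIF-1. The authors state that its activity is controlled through the protein, which these data do not measure. *HIF1A* itself had 483 against 723 rpm in NCs and matched cells (log2 ratio -0.58) and 1016 against 789.8 rpm in IL17B-high cells and their matches (0.36). Of 7 tested genes of HIF and the enzymes that control it, *ARNT* was higher (1.18) and *ARNT2* lower (-1.51) in NCs, and *EGLN3* (-2.00) and *EPAS1* (-1.85) were lower in IL17B-high cells. The medians were -0.58 and -0.42, against 0.30 and -0.28 for all genes, of which 24.7% and 6.88% were higher and 11.8% and 18.2% lower in the 2 comparisons. Among hypoxia-inducible genes outside glycolysis, 15 were tested in NCs. *CA12* (3.28, also a notochordal marker), *ADM* (3.28) and *KDM3A* (1.49) were higher, *ANGPTL4* (-3.69) and *LOX* (-2.45) were lower, and the median was 0.18, below that of all genes. *ADM* passed the filter through the NCs alone and *ANGPTL4* through the matched cells alone, where they were higher. In all, 3 of 15 were higher and 2 lower, against the 24.7% and 11.8% of all genes. In IL17B-high cells *CA12* was higher (3.36) and 6 of 14 were lower, with *ANGPTL4* (-4.82), *ANKRD37* (-3.79), *CA9* (-3.44) and *BNIP3* (-1.67) the farthest, where 18.2% of all genes were lower, and the median was -0.79. Among genes of respiration and the citric acid cycle the medians were 0.34 in NCs and -0.28 in IL17B-high cells, near the 0.30 and -0.28 of all genes. Their calls were fewer. Of 29 genes, 3 were higher and none lower in NCs, against 24.7% and 11.8% of all genes, and 1 was higher and 1 lower in IL17B-high cells, against 6.88% and 18.2%.

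Patterns like those of the 9 genes were sought over 10 pools, the group and tag combinations with 20 or more cells, which share a library and, in part, their tags. Among 9346 other genes, the mean of the 9 was followed most closely by *GADD45A* (Pearson r = 0.96), *TAGLN*, *CD44*, *PALLD* and *TTC3*, and *PFKFB3* by *TMCO3* (0.98), *SPON2*, *TF*, *RNF19A* and *TOR3A*. Within the 9, *PFKFB3* followed *SLC2A3* and *LDHA* (r = 0.93 and 0.92), and *ENO1* went against *HK1* (-0.87). Correlations between single cells were mostly weak. Within a tag and a group, the median Spearman correlation over the 36 pairs of genes was 0.03 and 0.04 in NCs and 0.05 to 0.08 in other cells, and the pair of *PGK1* and *ENO1* had the highest value in the other cells of every tag, from 0.19 to 0.25. Values spread most in the 67 NCs under A951, from -0.32 for *PFKFB3* and *ENO1* to 0.39 for *HK1* and *SLC2A3*, and ran from -0.11 to 0.21 in the 236 NCs under A952. Given the number of genes detected, the medians over pairs were lower, at 0.003 and 0.009 in NCs and 0.012 to 0.024 in other cells.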

How the data were processed

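Cells of NP and AC were sequenced by TAS-seq. Per the submitters' processing notes HISAT2 2.2.1 and featureCounts 2.0.2 were used; the genome build is not given in the sources used here. The values the authors deposited are counts (whole numbers of reads for each gene in each cell, not normalized), made by assigning reads to whole genes of the filtered Ensembl annotation, with reads of several places or genes allowed, and without molecular identifiers. Per gene the authors summed reads from unprocessed and processed transcripts, with those that could be either. Reads on near-identical copies, such as processed pseudogenes of *LDHA*, *PGK1* and *ENO1*, may therefore be shared, and PCR copies are kept. A second matrix, with 1358 cell columns of a library that no label lists, was not used, and the tag library holds no expression. From 5723 cells, 42 tagged as doublets and 7 without a tag were left out, as were cells with fewer than 200 or more than 9000 genes or with 5% or more of their reads on 13 mitochondrial genes. No other doublet caller was run. Kept cells had 24907 to 1290096 reads.

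Matching was within tags, without replacement, to at most 3 other cells within 10% of the number of genes detected. A gene was tested, in the sense of compared, where at least 10% of the cells of one side had a read, and a side with fewer than 3 reads was set to 3 reads. Intervals are 95% exact binomial or Poisson. Named were the 9 genes, in each other list at most the 4 genes per direction past 2-fold, with others for context chosen after their values were seen, and the 5 genes most like a pattern. The 9 genes and the lists were chosen with earlier results of these data known. Python 3.11.15, numpy 2.4.6, scipy 1.17.1 and matplotlib 3.10.9 were used, and the ratios were tested on simulated data. Alternatives were no matching, matching on reads, 1 matched cell, other scalings and averages, no limits on cells, thinning, other group limits and leaving out each tag. Leaving out the top 1% of cells and pairing on dissociation genes (within 1% of their log2 summed level) were added after the data were seen, as were all alternatives of the direct comparison of NCs and IL17B-high cells and the marker sums without each tag.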

Additional observations from a re-analysis of the deposited data

How the results depend on the processing

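*PFKFB3* stayed at least 2-fold higher under all 17 alternatives, with log2 ratios of 2.08 to 3.04 in NCs and 1.85 to 2.36 in IL17B-high cells, the pairing on dissociation genes giving 2.08 and 2.36. In NCs, *SLC2A3* kept its call under 16 of 17 (0.73 to 2.00), *HK1* under 14 and *PDK1* under 13 (0.14 to 2.73). The count of genes higher in NCs was 3. It became 5 with means of log2(rpm + 1), and 2 with matching on reads and with 1 or more *KRT19* and *TBXT* reads (without *PDK1*) and with cells paired on dissociation genes (without *SLC2A3*). Leaving out 1 tag gave 2 to 3, with 2 without A951. The count of lower genes was 1. It became 0 without matching and with 1 or more *KRT19* and *TBXT* reads and 2 (*HK1* and *HK2*) with cells paired on dissociation genes, and leaving out 1 tag gave 0 to 1, with 0 without A952. In IL17B-high cells the count of higher genes was 1. It became 2 without matching, with matching on reads, with 1 matched cell, without genes over 1% of reads and with cells paired on dissociation genes, 3 with means of per-cell rpm and with thinned cells, 4 when centred on the median of all genes and 5 with means of log2(rpm + 1). Leaving out 1 tag gave 1 to 2, with 2 without A951 or A954. No gene was called lower there under any alternative. Between IL17B-high cells and NCs the counts of 0 higher and 2 lower became 3 and 0 when centred on the median of all genes and stayed 0 and 2 with 1 NC per cell and with means of per-cell rpm (there *PDK1* and *ENO1*). Leaving out 1 tag gave 0 to 1 higher (1 without A951, *PDK1*, or A952, *HK2*) and 1 to 3 lower (1 without A951 or A953, 3 without A952). The 1 gene with a 2-fold range over tags, *SLC2A3*, was lost without A953 or A954, so that leaving out 1 tag gave 0 to 1. Against other cells no called ratio changed sign, but in IL17B-high cells those of *PDK1* (0.33 with 1 matched cell) and *ENO1* (0.03 when centred), which were not called, did. The cause of these changes was not tested.

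No paired analysis was possible because there is 1 library and no replicate. At this depth *PDK1*, with 720 reads in NCs, limits any statement on single tags, and the 5 and 2 NCs under A953 and A954 are too few for one.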

Other observations

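Genes that store glucose or branch from glycolysis differed between NCs and matched other cells in both directions. *PYGL*, the liver form of glycogen phosphorylase, had 194 against 9.14 rpm (log2 ratio 4.41) and a read in 59.4% against 18.5% of cells. *FBP1*, an enzyme of gluconeogenesis, had 10.1 against 2.07 rpm (2.28), but passed the filter on low values through the NCs alone, with a read in 10.6% of them and in 6.39% of matched cells. On the other side were *UGDH* (142 against 567 rpm, -1.99) and *UGP2* (626 against 1518 rpm, -1.28), which make the UDP-sugars used for glycosaminoglycans, and *PHGDH*, the entry to serine synthesis (60.5 against 136 rpm, -1.17). Thus 2 of 12 tested genes were at least 2-fold higher and 3 lower, where 24.7% and 11.8% of all genes were, with a median log2 ratio of 0.53 against 0.30 for all genes.

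In IL17B-high cells none of these 12 genes was at least 2-fold higher or lower, where 6.88% and 18.2% of all genes were, and *PYGL* had 4.13 against 5.86 rpm. The median was -0.47 against -0.28 for all genes.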
